A study of Homo sapiens with 6 samples.

Results

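The genes of intraflagellar transport (IFT), the BBSome and the ciliary transition zone were followed in MDA-MB-231 cells, a human triple-negative breast cancer line with mesenchymal features. They were treated for 8 h with SAHA (vorinostat) at 5 µM, which blocks zinc-dependent histone deacetylases, or with DMSO as the control. Each group had 3 Affymetrix PrimeView arrays. Members were chosen by symbol: names that begin with IFT, BBS or TCTN and a number, and 24 further named genes. The rule found 53 members among 18132 genes, 30 by the pattern and 23 by name, and BBIP1 was not analysed here. Of the 53, 52 were genes of the cilium and 1 was the pseudogene IFT122P3. A member was read from its brightest probe set, by the mean of the 6 arrays, so SAHA values had a part in the choice. In all 39 members with several probe sets the same one was also brightest by the DMSO arrays alone.

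The primary cilium is an antenna of the cell surface that grows from a centriole and is taken down when cells divide. It makes no protein of its own, so kinesin-2 carries cargo to the tip on IFT-B trains, and dynein-2 with IFT-A carries it back. The BBSome is a coat that rides on these trains and moves membrane receptors. The transition zone at the base is a gate of membrane and scaffold proteins that decides what enters. Many breast cancer cells carry few cilia or none, and whether these cells had any was not measured.

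Values are on the log2 scale. A difference is the SAHA mean minus the DMSO mean, a log2 fold change, given with limma's moderated standard error (n = 3 arrays per group). Adjusted p-values are limma's with Benjamini-Hochberg adjustment over all 18132 genes. Called means an adjusted p under 0.05. Whether the replicates were separate cultures is not in the labels, so the p-values rest on a spread between arrays that may be technical. Levels of different genes are not compared, because each probe set has a brightness of its own. In bulk RNA, fewer cells that make a transcript and less of it in each cell cannot be told apart.

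Arrays of a group correlated at 0.997 to 0.998 and arrays of different groups at 0.968 to 0.970 (Pearson's r across probe sets). The 3' to 5' difference of the ACTB control, which reads transcript integrity, was 0.89 ± 0.16 with DMSO and 0.61 ± 0.06 with SAHA (SD, n = 3). An exact two-sided permutation test gave p = 0.1, its minimum for 3 against 3 arrays, and 0.167 after adjustment over 5 controls. The GAPDH difference went the other way, from 0.029 ± 0.019 to 0.063 ± 0.020, and the 28S rRNA control was at 10.49 ± 0.11 with DMSO and 9.97 ± 0.04 with SAHA, each with the same p. These 3 controls moved with every difference given here. Counts with the ACTB difference as a covariate stand beside the first result, and the part of the other 2 was not tested. Of markers of the line, the mesenchymal genes VIM and AXL were at 13.96 and 12.61 in DMSO, and PGR and CDH1 at 3.29 and 4.20. ESR1 was at 5.98, ERBB2 at 7.63, GATA3 at 6.67, EPCAM at 8.67 and KRT8 at 10.28, so not all receptor and epithelial markers were low. With SAHA, GATA3 fell by 1.23, EPCAM by 0.93 and ERBB2 by 0.47. Of the mesenchymal genes, CAV1 fell by 0.71, CD44 by 0.57, ZEB1 by 0.45, AXL by 0.38 and MSN by 0.27. VIM, CDH1, KRT8, ESR1 and PGR were not called.

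With SAHA the transport machinery of the cilium rose nearly as a whole. The transition zone held both higher and lower genes, its share of lower ones near that of all genes. Of the 53 members, 39 (73.6%) were higher and 5 (9.43%) lower, where 48.3% of all genes were called, 24.6% higher and 23.8% lower. The members' median log2 fold change was 0.69, against -0.01 for all genes. Of all 53, 13 were called higher by at least 2-fold, where 5.93% of all genes were. The groups did not overlap in 47 members, where 55.5% of all genes had groups without overlap. Calls are more common among brighter genes, so the same counts were read at a mean log2 value of at least 7. There 31 of 39 members were higher and 4 lower, where 38.9% of genes were higher and 42.8% lower. With the ACTB difference as a covariate 36 members were higher and 3 lower, where the same fit called 18.6% of all genes higher and 17.5% lower. IFT56, CLUAP1 and OFD1 lost their call as higher, and MKS1 and TMEM231 as lower.

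**Figure D1:**
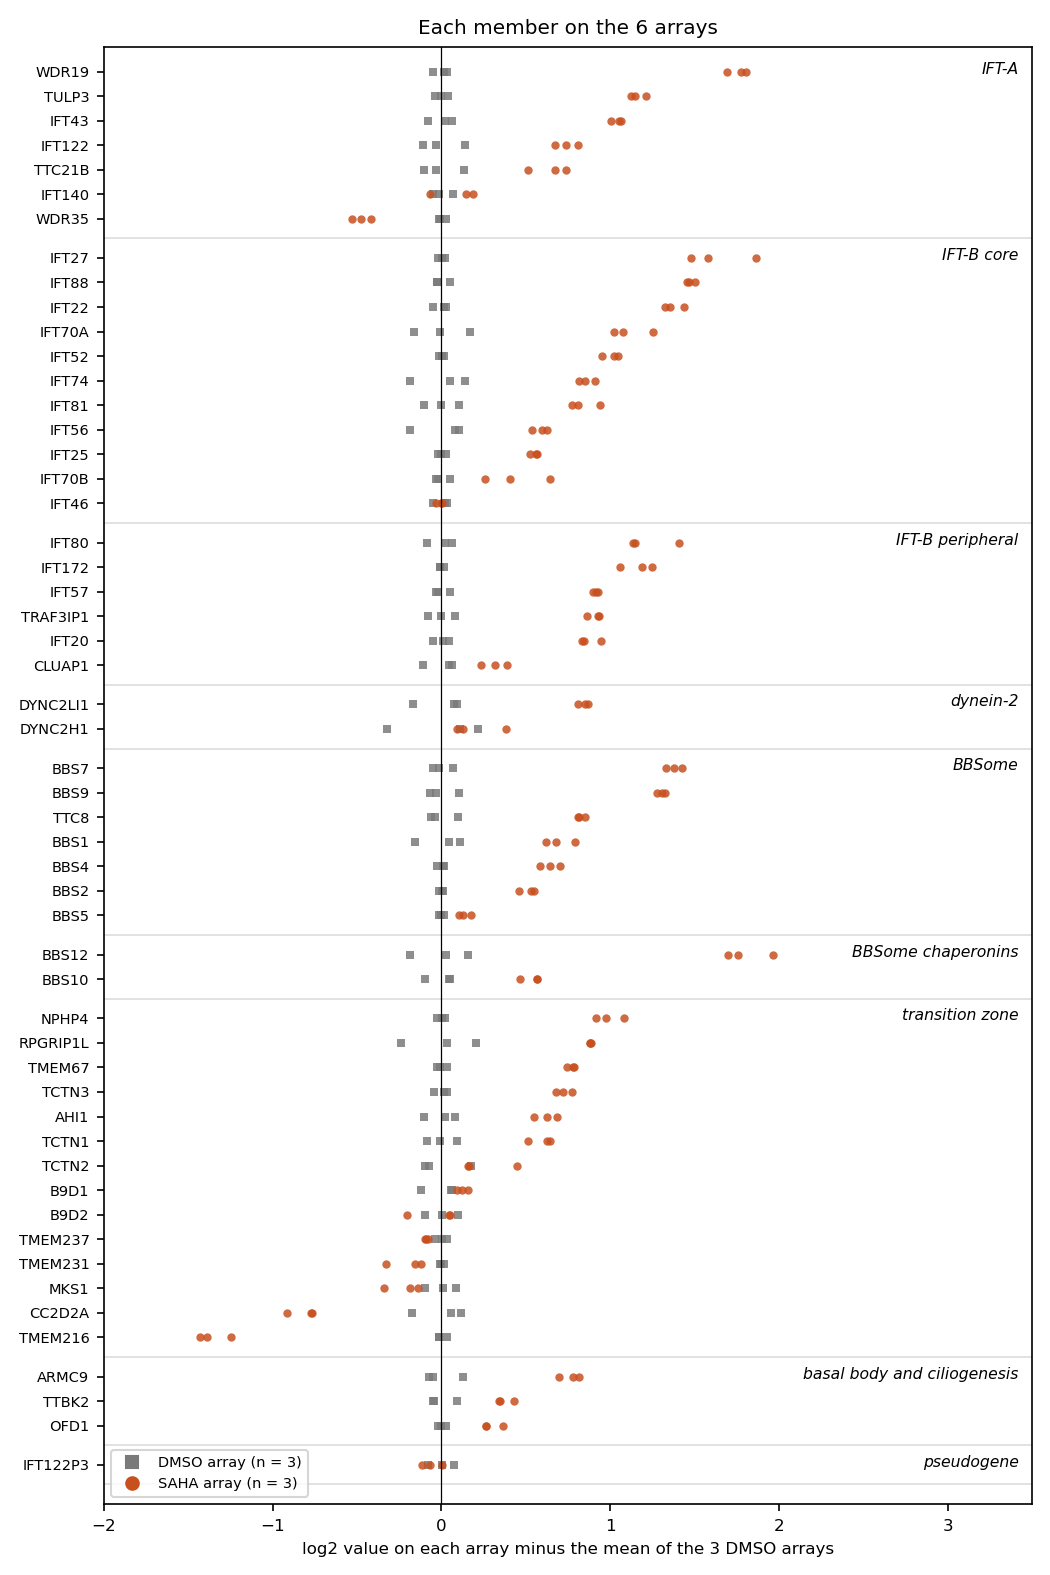
Log2 value of each of the 53 members on each of the 6 arrays, minus the mean of its 3 DMSO arrays, with members grouped by role. Squares are DMSO and circles SAHA arrays; nearly all circles of the IFT and BBSome groups lie to the right of the squares, while the transition zone runs from NPHP4 at 0.99 to TMEM216 at -1.36.

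The anterograde train, IFT-B, was higher in 16 of its 17 measured genes and lower in none, with a median of 0.91. In its core of 11 genes, which holds the train together and binds tubulin, 10 rose. IFT88, without which cilia do not form, was at 7.08, 7.15 and 7.08 in the DMSO arrays and at 8.57, 8.56 and 8.61 in the SAHA arrays. Each SAHA array was above each DMSO array, a rise of 1.47 ± 0.05 (2.78-fold, adjusted p = 5.56e-07). Its other 2 probe sets were called higher too.

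IFT27 and IFT22 are the small GTPase-like subunits of the core. IFT27, which links the train to the exit of the BBSome, was at 5.60, 5.62 and 5.57 in DMSO and 7.46, 7.07 and 7.17 in SAHA arrays. It rose by 1.64 ± 0.10 (3.11-fold, adjusted p = 5.35e-06), with the highest value on SAHA array 1. IFT22 was at 8.28, 8.22 and 8.29 in DMSO and 9.70, 9.62 and 9.59 in SAHA arrays, a rise of 1.37 ± 0.06 (adjusted p = 1.07e-06). IFT25, the partner that binds IFT27, rose by a smaller 0.55 ± 0.05 (adjusted p = 4.87e-05).

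The tubulin-binding pair IFT81 and IFT74 rose together, by 0.84 ± 0.07 and 0.86 ± 0.09. IFT81 was at 0.24 in its second, dim probe set, where it did not pass. IFT52, a scaffold of the core, rose by 1.01 ± 0.05 and IFT56, needed for the import of motility proteins, by 0.59 ± 0.09. The paralogs IFT70A and IFT70B rose by 1.12 ± 0.10 and 0.44 ± 0.10 (adjusted p = 4.40e-05 and 0.00646). They are nearly identical neighbouring genes, and probes may be shared between them, so how the rise divides between the copies is uncertain. IFT46, which carries outer dynein arms, was the subunit that did not pass, at -0.01 ± 0.05 (adjusted p = 0.893). Its 6 values lay between 8.91 and 8.99 and the groups overlapped.

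All 6 peripheral IFT-B genes rose. IFT172, which turns trains around at the tip, was at 7.09, 7.06 and 7.06 in DMSO and 8.13, 8.26 and 8.32 in SAHA arrays. It rose by 1.17 ± 0.06 (2.24-fold, adjusted p = 3.67e-06), and its other 3 probe sets, with mean values under 6, gave 0.07 to 0.24 and did not pass. IFT80, mutated in a skeletal ciliopathy with a narrow chest, was at 9.21, 9.31 and 9.36 in DMSO and 10.44, 10.43 and 10.70 in SAHA arrays. Its rise was 1.23 ± 0.09 (adjusted p = 1.21e-05), and its other probe set gave 1.29.

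IFT20, which also sorts cargo at the Golgi, rose by 0.88 ± 0.06 and IFT57 by 0.91 ± 0.05. TRAF3IP1 (IFT54), a microtubule-binding subunit, rose by 0.91 ± 0.06. CLUAP1 (IFT38) rose least of the 6, by 0.31 ± 0.07 (adjusted p = 0.00681). It did not pass with its second probe set (0.10), with the ACTB covariate (0.22) or in limma's test against 1.2-fold.

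The retrograde complex IFT-A, with its adaptor TULP3, had 5 genes higher, 1 lower and 1 not called. WDR19 (IFT144), a subunit of its core, was at 7.22, 7.16 and 7.24 in DMSO and 8.90, 9.01 and 8.98 in SAHA arrays. The 3.38-fold rise of 1.76 ± 0.06 (adjusted p = 3.76e-07) was the largest in the complex. A second WDR19 probe set near the bottom of the scale, at a mean of 3.11, gave 0.11. TULP3, which hands receptors to IFT-A for entry, rose by 1.16 ± 0.05, and its 7 probe sets gave 1.02 to 1.16. IFT43 rose by 1.04 ± 0.06, IFT122 by 0.74 ± 0.08 and TTC21B (IFT139) by 0.64 ± 0.09.

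WDR35 (IFT121) went the other way. It was at 9.60, 9.60 and 9.63 in DMSO and 9.13, 9.08 and 9.19 in SAHA arrays, without overlap. It fell by 0.48 ± 0.06 (1.39-fold, adjusted p = 0.000187), and its other probe set fell by 0.56 ± 0.09. In none of the 20 alternative settings did it lose its call. IFT140 was dim, with values of 4.46 to 4.72, and did not pass in its brightest probe set (0.09 ± 0.08, adjusted p = 0.435). The pseudogene IFT122P3 was at 5.21, 5.14 and 5.06 in DMSO and 5.02, 5.14 and 5.07 in SAHA arrays. It did not pass (-0.06 ± 0.06, adjusted p = 0.497).

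Of the dynein-2 motor that pulls trains back, the light intermediate chain DYNC2LI1 was at 7.44, 7.69 and 7.71 in DMSO and 8.48, 8.46 and 8.42 in SAHA arrays. It rose by 0.84 ± 0.08 (adjusted p = 6.00e-05), while its second probe set, at a mean of 4.33, showed no difference (-0.00015). The heavy chain DYNC2H1 had overlapping groups, from 6.47 to 7.02 in DMSO and 6.89 to 7.18 in SAHA arrays, and did not pass (0.20 ± 0.15, adjusted p = 0.318). It passed once arrays were centred on poly-A spike-ins.

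Among the members, the BBSome and its chaperonin-like assembly factors were higher in 8 of 9 genes and lower in none, with a median of 0.69. BBS12, a chaperonin-like protein that helps build the complex, was at 5.43, 5.78 and 5.64 in DMSO and 7.58, 7.37 and 7.31 in SAHA arrays. Its rise of 1.81 ± 0.11 (3.49-fold, adjusted p = 4.96e-06) was the largest of all 53 members, and its other probe set gave 1.56. BBS10, the other assembly factor among the members, rose by 0.53 ± 0.07. A further chaperonin-like gene, MKKS (BBS6), is missed by the symbol rule and fell by 0.41, as given with the related genes.

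BBS7 and BBS9, subunits of the coat itself, rose most among the 7 measured. BBS7 was at 7.25, 7.28 and 7.37 in DMSO and 8.73, 8.63 and 8.68 in SAHA arrays, a rise of 1.38 ± 0.06 (2.60-fold, adjusted p = 1.17e-06). BBS9 was at 5.75, 5.92 and 5.78 in DMSO and 7.10, 7.12 and 7.14 in SAHA arrays, a rise of 1.30 ± 0.06 (adjusted p = 1.95e-06). The groups of both genes were far apart, and all their other probe sets rose too, by 0.89 to 1.54.

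TTC8 (BBS8) rose by 0.82 ± 0.06, BBS4, which recruits cargo at centriolar satellites, by 0.64 ± 0.06 and BBS2 by 0.51 ± 0.05. BBS1, the subunit bound by the GTPase ARL6 at the membrane, rose by 0.69 ± 0.09 in its brightest probe set. Its other 7 probe sets gave -0.21 to 0.12 and none passed, so the call of BBS1 rests on 1 probe set of 8. With the mean of all 8 it was 0.08 and did not pass. BBS5, which binds phosphoinositides, was at 0.14 ± 0.05 and narrowly missed the threshold (adjusted p = 0.0628). Its groups did not overlap, and it passed in 4 of 19 alternative settings.

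**Figure D2:**
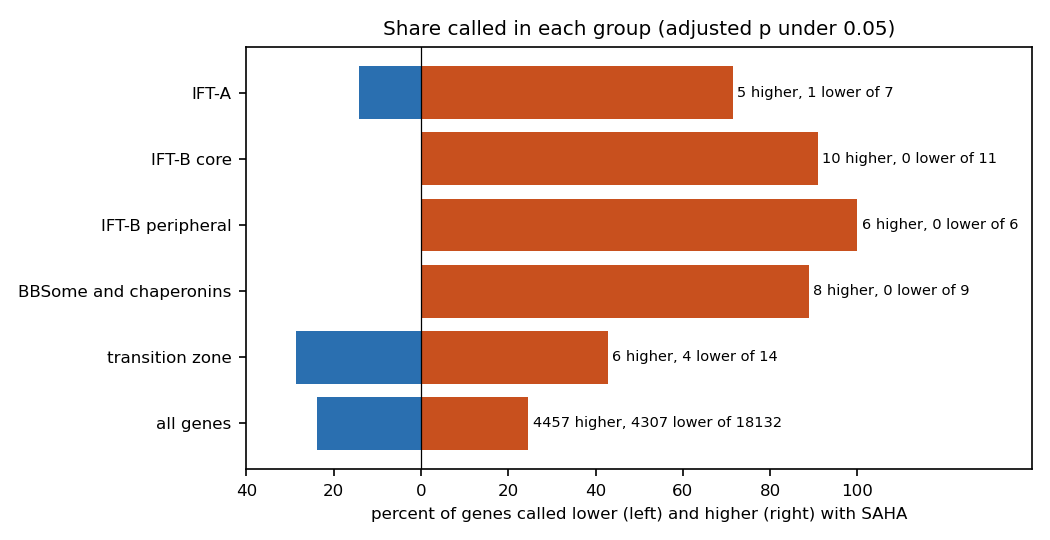
Percent of the genes in each role called higher (right, orange) and lower (left, blue) with SAHA, with counts beside the bars and all 18132 genes at the bottom. IFT-B and the BBSome have no lower member, and the transition zone has 6 higher and 4 lower of 14.

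The transition zone differed from this pattern in its counts, with 6 of 14 genes higher (42.9%), 4 lower (28.6%) and 4 not called. Its median was 0.19. Of all genes 24.6% were higher and 23.8% lower, so the share of lower genes was near that of all genes. The higher genes were not of 1 module. NPHP4 and RPGRIP1L, scaffolds of the nephronophthisis module, rose by 0.99 ± 0.06 and 0.88 ± 0.11. TMEM67, a receptor-like membrane protein of the Meckel syndrome module, rose by 0.77 ± 0.05. The tectonics TCTN3 and TCTN1 rose by 0.72 ± 0.06 and 0.59 ± 0.07, and AHI1, a Joubert syndrome protein, by 0.62 ± 0.07. TCTN1 did not pass without its probe set shared by similar transcripts (0.25).

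TMEM216, a small membrane protein of the gate mutated in Joubert and Meckel syndromes, had the largest fall. It was at 9.69, 9.69 and 9.73 in DMSO and 8.46, 8.31 and 8.27 in SAHA arrays. The groups lay more than 1 log2 unit apart, and the gene fell by 1.36 ± 0.06 (2.56-fold, adjusted p = 1.83e-06), where 4.47% of all genes fell by at least 2-fold. CC2D2A, a coiled-coil and C2 domain protein of the same gate, was at 7.17, 7.40 and 7.46 in DMSO and 6.57, 6.57 and 6.42 in SAHA arrays. It fell by 0.82 ± 0.09 (1.76-fold, adjusted p = 0.000129). Neither gene lost its call in the alternatives run for it (20 and 19). Each was read from its only probe set, so alternatives that choose or average probe sets left its values unchanged.

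MKS1 and TMEM231 were at the edge of the threshold. MKS1, the B9-domain protein that names the module, was at 7.28, 7.36 and 7.17 in DMSO and 6.93, 7.08 and 7.13 in SAHA arrays. Its difference of -0.22 ± 0.08 (adjusted p = 0.0465) lost its call in 13 of 20 alternatives, among them without DMSO array 1 or 2 or SAHA array 1 or 2 (adjusted p = 0.0805 to 0.138). TMEM231 was at 8.48, 8.46 and 8.46 in DMSO and 8.31, 8.34 and 8.14 in SAHA arrays. Its difference of -0.20 ± 0.07 (adjusted p = 0.0414) lost its call in 12 of 20, among them without any DMSO array or without SAHA array 1 or 3 (adjusted p = 0.0576 to 0.119). With the replicate number as a block, adjusted p was 0.0796 for MKS1 and 0.0700 for TMEM231, and 3 members remained lower.

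The other B9-domain proteins did not pass, B9D1 at 0.12 ± 0.07 and B9D2 at -0.04 ± 0.09 (adjusted p = 0.180 and 0.778). TCTN2 was at 0.26 ± 0.11 and TMEM237 at -0.09 ± 0.05 (adjusted p = 0.0858 and 0.206). Of these, TCTN2 and B9D1 passed as higher after centring on ribosomal protein genes or on poly-A spike-ins, and TCTN2 also without DMSO array 3.

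The 3 proteins of the basal body that start or tune ciliogenesis all rose. ARMC9, a Joubert syndrome protein of the basal body and tip, was at 7.23, 7.20 and 7.40 in DMSO and 8.10, 7.97 and 8.06 in SAHA arrays, a rise of 0.76 ± 0.07 (adjusted p = 5.82e-05). TTBK2, the kinase that uncaps the mother centriole, rose by 0.37 ± 0.06 (adjusted p = 0.00153). A probe set of TTBK2 shared by similar transcripts gave 1.25. OFD1, which acts at the distal centriole and its satellites, rose by 0.30 ± 0.06 (adjusted p = 0.00265). Its other 4 probe sets gave -0.13 to 0.13 and did not pass.

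The members' other probe sets did not enter the main calls above. They read the same genes and may share probes with the brightest probe set, which was not checked. There were 92 of them in 39 members, of which 56 were higher and 3 lower in limma's test over all 49293 probe sets, where 22.2% were higher and 24.1% lower. Brightness went with the calls: 23 of 29 with a mean of at least 7 were higher, 26 of 38 at 5 to 7, and 7 of 25 under 5. Of 33 members called higher with other probe sets, 20 had every one of them higher. The 80 other probe sets of these 33 members gave 54 higher and 0 lower calls, while 26 did not pass. The 3 probe sets called lower belonged to WDR35, MKS1 and TMEM231.

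**Figure D3:**
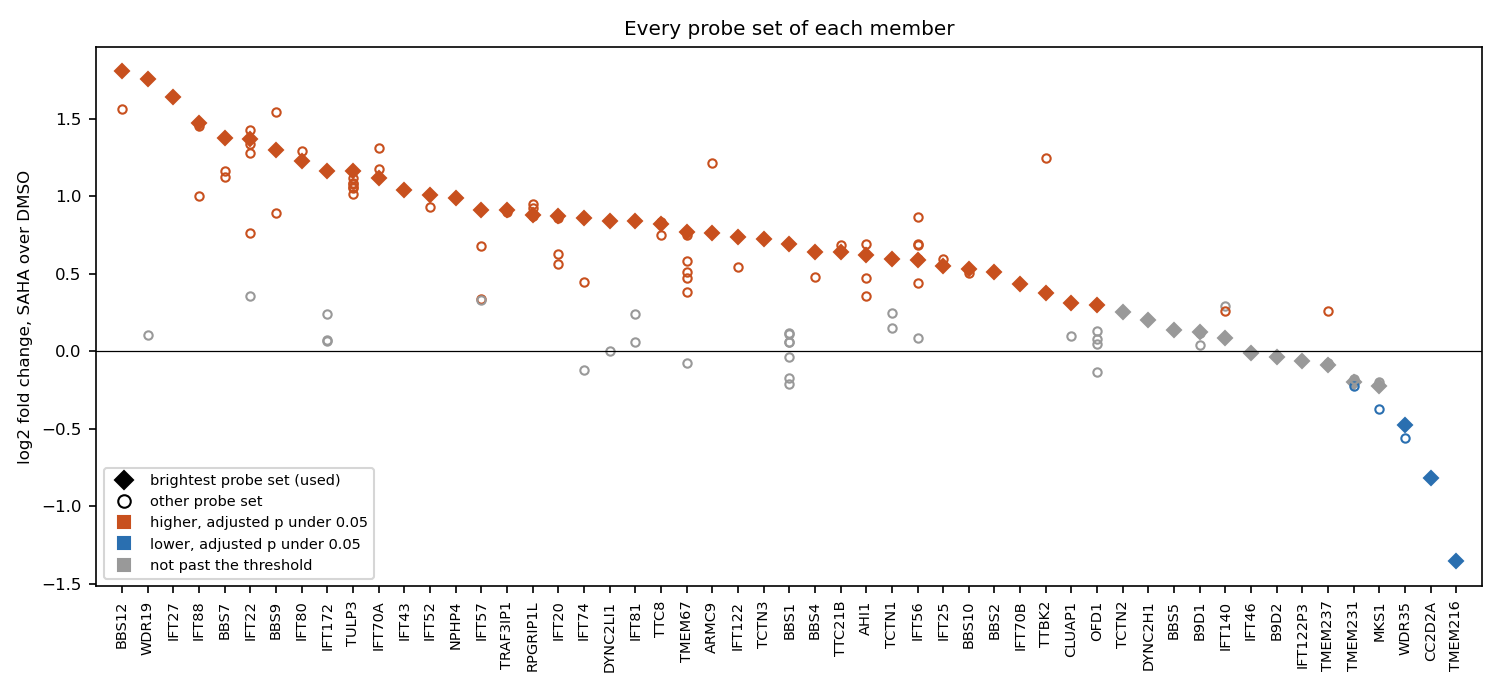
Log2 fold change of SAHA over DMSO for each of the 145 probe sets of the 53 members, ordered by the brightest one (filled diamonds), with other probe sets as open circles. Colours give the call in the test over all probe sets, in which MKS1 and TMEM231 narrowly missed the threshold (adjusted p = 0.0532 and 0.0504); the orange circles at 1.21 for ARMC9 and 1.25 for TTBK2 lie above their diamonds.

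Promoters were read for what members share beyond their names. RFX transcription factors drive many ciliary genes through the X-box, a motif of 14 letters with 2 facing arms, of which GTTGCC is a common form. In the 250 bases before the RefSeq start (GRCh38.p14, both strands), available for 47 members, GTTGCC stood in 19 (40.4%), against 10.4% of 15842 protein-coding promoters. It stood in 13 of the 36 members called higher with a window and in 6 of the other 11, a difference that was not tested. The median log2 fold change was 0.53 in members with it and 0.80 in those without. The whole X-box was searched in a form that allows other letters at some positions, so a match need not hold GTTGCC. It was in 1 member, B9D1, against 0.675% of all promoters. CCAAT stood in 44.7% of members and 34.5% of all promoters, CGGAAG of ETS factors in 29.8% and 21.7%, and the GC box GGGCGG in 55.3% and 56.0%.

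The windows below are 60 bases on the gene's own strand. Capitals mark the arm, which reads GGCAAC where it lies on the other strand, or in B9D1 the whole X-box, which lies on the other strand and does not hold GTTGCC. They show the 6 largest rises with the arm, the 2 lower members with it, and the X-box of B9D1. The lower calls, of MKS1 and TMEM231, were lost in 13 and 12 of 20 alternatives. Whether the arm bears on the response was not tested.
IFT27, chr22:36776126-36776185, minus strand: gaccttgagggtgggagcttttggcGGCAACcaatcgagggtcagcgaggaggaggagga
TULP3, chr12:2890826-2890885, plus strand: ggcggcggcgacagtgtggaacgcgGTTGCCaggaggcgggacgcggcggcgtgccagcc
IFT70A, chr2:177618743-177618802, minus strand: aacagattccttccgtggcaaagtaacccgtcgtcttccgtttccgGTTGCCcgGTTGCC
IFT74, chr9:26946860-26946919, plus strand: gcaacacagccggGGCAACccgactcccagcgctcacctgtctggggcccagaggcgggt
DYNC2LI1, chr2:43773979-43774038, plus strand: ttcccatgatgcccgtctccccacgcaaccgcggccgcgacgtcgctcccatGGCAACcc
TTC8, chr14:88824591-88824650, plus strand: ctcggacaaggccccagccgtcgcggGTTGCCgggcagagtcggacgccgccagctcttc
MKS1, chr17:58219256-58219315, minus strand: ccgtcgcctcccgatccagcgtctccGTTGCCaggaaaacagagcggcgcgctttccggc
TMEM231, chr16:75556258-75556317, minus strand: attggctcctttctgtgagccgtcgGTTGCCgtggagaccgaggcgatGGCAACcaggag
B9D1, chr17:19378072-19378131, minus strand: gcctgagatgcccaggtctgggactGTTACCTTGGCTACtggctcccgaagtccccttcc

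IFT70A and TMEM231 each hold the arm at 2 places in the window, and their log2 fold changes were 1.12 and -0.20. In IFT27, TULP3 and TMEM231 the first match began 40 or 41 bases before the start. A match of letters is a description and does not show that a factor binds there.

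Neighbouring genes were looked up because TMEM216 lies beside TMEM138, another gene of the transition zone. TMEM138 was at 10.34, 10.36 and 10.39 in DMSO and 9.10, 9.12 and 9.02 in SAHA arrays, a fall of 1.28 ± 0.05 (adjusted p = 1.10e-06). Its 2 dim probe sets, with mean values of 5.96, gave 0.09 and 0.13 and did not pass. CPSF7, the RNA cleavage factor gene on the other side of TMEM216, fell by 0.84 ± 0.07. A neighbour of WDR35, TTC32, fell by 0.80 ± 0.09 and one of CC2D2A, the ubiquitin ligase gene FBXL5, by 0.52 ± 0.05. Others went the opposite way: MATN3 beside WDR35 rose by 1.10 and GABARAPL2 beside TMEM231 by 0.86. Of the 10 measured neighbours of the 5 lower members, 4 were lower, 2 higher and 4 not called, where 23.8% of all genes were lower and 24.6% higher.

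In 72 pairs of a rising member and a measured adjacent gene, the neighbour was higher in 17 and lower in 18, shares near those of all genes. The members IFT70A and IFT70B were counted there as higher neighbours of each other. BBS7 lies beside the cyclin gene CCNA2, which fell by 1.05 ± 0.07. Of 9 members with a protein-coding gene starting head to head within 1000 bases, 8 had a measured partner, of which 2 were higher, 2 lower and 4 not called, again near the shares of all genes. Of 3 such pairs with both genes called, 1 moved in the same direction, where 62.4% of 340 head-to-head pairs in all did. IFT80 (1.23) faced the condensin gene SMC4, which fell by 0.30, and NPHP4 (0.99) faced KCNAB2, which fell by 0.27. RPGRIP1L (0.88) faced FTO, which rose by 0.33.

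Related ciliary genes outside the member list are given by function. Their counts are to be read against the 24.6% of all genes called higher and 23.8% called lower. Of the kinesin-2 genes, a family that includes the motor driving IFT-B trains outward, 4 of 5 rose and 0 fell (median 0.75). KIF3B was among those that rose, by 0.65. KIF3A rose by 1.45 ± 0.06, KIF3C by 1.41 ± 0.06 and the accessory subunit KIFAP3 by 0.75 ± 0.06 (adjusted p = 8.71e-07, 1.30e-06 and 1.72e-05). Of 6 further dynein-2 and IFT-linked subunits, 5 rose and 1 fell. DYNC2I1, an intermediate chain, rose by 1.19 ± 0.07 and the light chain DYNLT1 by 0.47 ± 0.06. The other intermediate chain, DYNC2I2, fell by 0.35 ± 0.06, a call lost with poly-A centring (-0.19) and in the test against 1.2-fold.

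Partners of the BBSome rose in 4 of 5 cases (median 1.11). ARL6, the GTPase that recruits the coat to membranes, rose by 1.50 ± 0.06 (adjusted p = 7.13e-07), CCDC28B by 1.28 ± 0.08 and LZTFL1, a regulator of its ciliary entry, by 1.11 ± 0.06. MKKS (BBS6), the chaperonin-like gene of this list, was named after its value was seen. It fell by 0.41, a call lost with poly-A centring. In the lipidated-cargo pathway of ARL3, 5 of 7 genes rose and 2 fell. The prenyl-binding carrier PDE6D rose by 1.77 ± 0.05, UNC119, which carries myristoylated cargo, by 1.22 ± 0.07 and the GTPase ARL3 by 0.89 ± 0.05. The 2 that fell were the phosphatase INPP5E (-0.77, and 0.02 in its second probe set) and UNC119B (-0.41), whose call was lost in 3 alternatives.

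Of 18 other genes of the gate, 5 were higher and 7 lower (median -0.05). Beside TMEM138, TMEM17 fell by 1.40 ± 0.09 and TMEM107 rose by 0.88 ± 0.06, both membrane proteins of the gate. The only probe set of TMEM17 had means of 5.69 in DMSO and 4.29 in SAHA arrays. Of 17 genes of distal appendages and ciliogenesis start, 6 rose and 4 fell, among them EHD3 (1.45 ± 0.18), the membrane-shaping EHD1 (0.78 ± 0.06) and CEP350 (0.66 ± 0.10). EHD3 was at 0.15 in its second probe set, the brightest by DMSO arrays alone, and did not pass there, and CEP350 did not pass with the ACTB covariate (0.50).

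Of 13 genes of cilium disassembly, 4 rose and 5 fell. The scaffold NEDD9 rose by 3.90 ± 0.14 in the probe set used, and its other 3 gave 2.63, 1.62 and -0.09. The one at 1.62 was brightest by DMSO arrays alone, all 4 being under 4 there. The kinase AURKA, a partner of NEDD9, fell by 1.13 ± 0.06 and TRIP6 by 1.47 ± 0.08. In a list of 12 RFX factors, partner proteins such as RFXAP, and factors of ciliogenesis, 2 rose and 3 fell, near or below the shares of all genes. GMNC, which starts the multiciliated cell programme, rose by 1.64 ± 0.06 and RFX2 by 1.11 ± 0.06. RFX7 fell by 1.27 ± 0.06, RFX1 by 0.68 and RFXAP by 0.33. GMNC was dim in its only probe set, with means of 3.65 in DMSO and 5.29 in SAHA arrays. The call of RFXAP was lost in 8 of 19 alternatives, among them without DMSO array 2 or 3 or SAHA array 1 (adjusted p = 0.0541 to 0.0601).

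Of 19 Hedgehog pathway genes, a pathway that signals through the cilium, 5 rose and 3 fell (median 0.02), so the share that rose was near that of all genes. The co-receptor CDON rose by 2.31 ± 0.09, the kinase subunit PRKACA by 1.66 ± 0.06 and the receptor PTCH1 by 1.33 ± 0.06. Dimmer probe sets gave less, 1.25 and 0.59 for CDON and 0.34 to 1.0 for PRKACA, all called higher. The second PTCH1 probe set gave 1.44 and 3 dim ones -0.05 to 0.74. The last list, axoneme and other markers of multiciliated cells, had 2 of 14 higher and 1 lower. CAPS rose by 0.95 ± 0.08 (0.22 in its second probe set, brightest by DMSO arrays alone and not called) and RSPH4A by 0.47 ± 0.06, while CCNO fell by 0.80 ± 0.09 (-0.23 in its second probe set). The summed log2 value of these 14 was 66.8 to 68.6 in DMSO and 68.1 to 69.4 in SAHA arrays, and the groups overlapped. On each array 9 or 10 of the 14 were under 5.

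**Figure D4:**
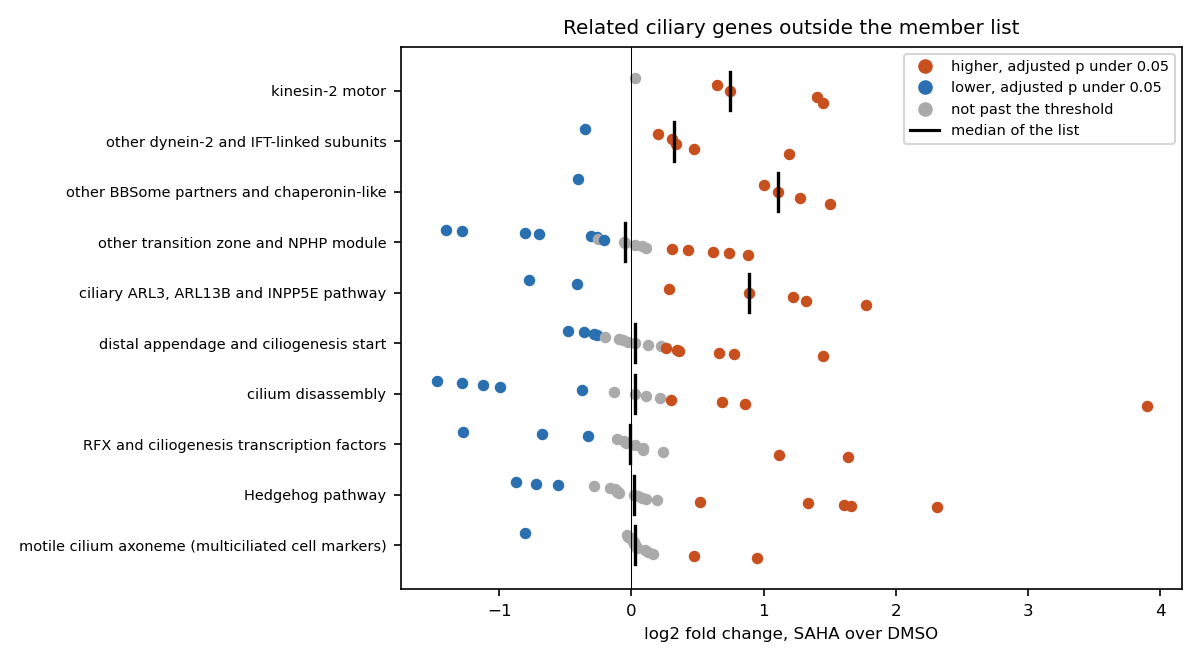
Log2 fold change of SAHA over DMSO for 116 related genes in 10 lists, 1 point per gene, with the list's median as a black bar. Kinesin-2, BBSome partners and the ARL3 pathway have medians of 0.75, 1.11 and 0.89, while the lists from the transition zone to the multiciliated markers, apart from the ARL3 pathway, have medians near 0.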

How the data were processed

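The authors deposited 1 log2 value per probe set and array, made with RMA per the submitters' processing notes; which software ran it is not given in the sources used here. RMA corrects background and makes array distributions equal, so a shift of most transcripts one way cannot be read, and fold changes near the floor are understated. Values ran from 2.33 to 14.33. Groups and replicate numbers came from the labels. Of 49395 probe sets, 102 were controls, 44988 named 1 gene by the platform annotation, and 1832 naming several and 2473 naming none were left out of gene-level tests. All 53 member symbols matched RefSeq (GRCh38.p14).

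The groups were compared in limma 3.58.1 (R 4.3.3; lmFit, eBayes) without covariates or a filter. Two-sided p-values were adjusted by Benjamini-Hochberg across the 18132 genes and called at 0.05. Tested on simulated data of the same 18132 genes, the fit found 58% of 50 genes changed 1.5-fold and 98% of 50 changed 2-fold. It made 7 false calls. Far fewer genes were changed there than the 48.3% called here, which makes the adjusted threshold stricter. These shares may therefore not hold for the real data. Array controls had exact permutation tests.

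Members, roles and lists were chosen with earlier results of these data known, so no test over a list is given. Values per array are given for the 8 largest rises, up to 8 falls and the smallest p in each role, and 3 genes with the smallest p are named per related list. Neighbours, head-to-head pairs and further genes were chosen after values were seen. Same-numbered arrays of the groups had deviations that correlated at -0.13 to -0.04, and other pairs at -0.03 to 0.10. With 3 arrays per group this cannot settle whether the numbers paired them. Figures were drawn with matplotlib 3.10.9.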

Additional observations from a re-analysis of the deposited data

Results flagged for a closer look

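Among probe sets outside the gene-level test, 3 were called higher although the brightest probe set of the gene was not, or named 2 genes at once. A second TMEM237 probe set, at a mean log2 value of 7.97, was higher by 0.26 ± 0.06 (limma's adjusted p = 0.00641 over all probe sets), while the 3 others of this gene gave -0.09 to -0.08. The dimmest IFT140 probe set, at a mean of 4.11, was higher by 0.26 ± 0.08 (adjusted p = 0.0360), where the brightest was not called. The probe set naming both IFT122 and the pseudogene IFT122P3 was higher by 0.28 ± 0.06 (adjusted p = 0.00669), between IFT122 alone (0.74) and IFT122P3 alone (-0.06).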

How the results depend on the processing

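Over 20 alternatives, 31 of the 44 called members kept direction and call in each that could be computed, and 13 lost the call in at least 1, of which BBS1 and DYNC2LI1 also changed sign. MKS1 and TMEM231 account for most losses. The 14 members with 1 probe set had unchanged values in the alternatives that choose or average probe sets, so these could not test them. Members called higher were 31 to 43. Members called lower, 5 in the main fit, were 3 with the replicate block, quantile normalization once more, centring on ribosomal protein genes or on poly-A spike-ins, the ACTB covariate, treat at 1.2-fold and a threshold of 0.01, and 3 to 4 without 1 array. The block changed no call of a member other than MKS1 and TMEM231, and same-numbered arrays did not deviate together. The members' median of 0.69 was 0.54 with the mean of probe sets, 0.48 with the second brightest, 0.73 and 0.74 with filters at 5 and 7, 0.78 and 0.86 centred on ribosomal protein genes and poly-A spike-ins, 0.65 with the ACTB covariate and 0.65 to 0.72 without 1 array.

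With the second brightest probe set BBS1 (-0.21), DYNC2LI1 (-0.00015), TMEM138 (0.0941) and INPP5E (0.0154) changed sign, none past the threshold, and WDR19, IFT81, IFT172, CLUAP1, TCTN1 and OFD1 did not pass. The cause was not tested. The second probe set was dim for WDR19, IFT81 and DYNC2LI1, with means under 5. Centring on poly-A spike-ins raised all genes by 0.16, with 5829 genes higher and 2556 lower against 4457 and 4307. Centred on ribosomal protein genes the counts were 5601 and 3551. Related genes called lower were 16 centred on poly-A spike-ins and 17 with treat, against 27, and 49 were then higher with the former, against 42. With treat 2759 genes were higher and 2531 lower. With 3 arrays per group, small differences may be missed. The simulation does not give the share missed here, because far fewer genes changed in it than in these data.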
